A study of Mus musculus with 6 samples.

Results

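The 7 genes described here, Esr1, Pgr, Greb1, Tnfsf11, Tnfrsf11a, Cited1 and Msx2, belong to the hormone-sensing program of the luminal mammary epithelium and to the RANK axis through which it acts on neighbouring cells. They were chosen by name, as textbook members of that program, out of 18537 known-gene clusters with deposited values, and all 7 passed the filter on low reads that left 13692 clusters to test. Their poly(A)+ RNA was measured by RNA-seq in luminal progenitors (LPs) that were sorted by FACS as Lin-CD24loCD29+CD61+ cells from mammary glands of adult nulliparous mice. The 3 Robo1+/+ libraries (gh03, gh09 and gh15) and the 3 Robo1-/- libraries (gh06, gh12 and gh18) came from littermates of a Robo1+/- by Robo1+/- cross, and RNA of 2 animals went into each library. The Robo1-/- mice carried the Robo1 tm1Matl allele in every tissue, so the cells around the LPs, basal cells included, were mutant too. No group received a treatment, and the labels do not give the stage of the estrous cycle.

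In the mammary gland, estrogen acts through the receptor that Esr1 encodes and induces the progesterone receptor, Pgr, in the same luminal cells. Progesterone then makes these hormone-sensing cells secrete paracrine signals, among them RANKL, the product of Tnfsf11, which binds its receptor RANK, the product of Tnfrsf11a, on neighbouring luminal progenitor and basal cells and drives them to proliferate. Greb1 is a cofactor and target gene of the estrogen receptor, Cited1 is a transcriptional coactivator of that receptor, and Msx2 is a homeobox factor of epithelial development.

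The start-site sequences of 4 genes are shown because they carry the RANKL signal and its receptor (Tnfsf11, Tnfrsf11a), the receptor upstream of it (Pgr) and an estrogen receptor target (Greb1). Each runs 5′ to 3′ on the gene's own strand from 250 bases before to 50 bases after a RefSeq start site of GRCm38.p6, and capitals mark the motif matches described after the sequences. The windows are chr9:8899583-8899882 (+) for Pgr, chr12:16800837-16801136 (-) for the first of the start sites of Greb1, chr14:78307994-78308293 (-) for Tnfsf11 and chr1:105780473-105780772 (+) for Tnfrsf11a.
Pgr: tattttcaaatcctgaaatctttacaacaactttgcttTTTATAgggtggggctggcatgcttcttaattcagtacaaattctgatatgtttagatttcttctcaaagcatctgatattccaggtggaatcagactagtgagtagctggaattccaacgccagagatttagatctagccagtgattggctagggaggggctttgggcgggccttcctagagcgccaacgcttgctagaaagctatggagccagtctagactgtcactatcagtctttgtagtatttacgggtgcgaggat
Greb1: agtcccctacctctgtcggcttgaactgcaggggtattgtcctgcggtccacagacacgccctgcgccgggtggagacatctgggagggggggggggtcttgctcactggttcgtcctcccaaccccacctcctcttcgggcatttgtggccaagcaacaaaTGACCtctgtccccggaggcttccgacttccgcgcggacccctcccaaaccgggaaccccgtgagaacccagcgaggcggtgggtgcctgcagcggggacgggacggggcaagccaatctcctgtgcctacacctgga
Tnfsf11: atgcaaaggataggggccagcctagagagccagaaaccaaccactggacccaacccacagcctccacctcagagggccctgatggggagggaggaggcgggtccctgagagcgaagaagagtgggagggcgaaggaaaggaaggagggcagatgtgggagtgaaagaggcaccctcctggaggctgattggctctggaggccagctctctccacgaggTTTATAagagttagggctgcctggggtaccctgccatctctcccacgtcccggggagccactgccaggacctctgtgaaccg
Tnfrsf11a: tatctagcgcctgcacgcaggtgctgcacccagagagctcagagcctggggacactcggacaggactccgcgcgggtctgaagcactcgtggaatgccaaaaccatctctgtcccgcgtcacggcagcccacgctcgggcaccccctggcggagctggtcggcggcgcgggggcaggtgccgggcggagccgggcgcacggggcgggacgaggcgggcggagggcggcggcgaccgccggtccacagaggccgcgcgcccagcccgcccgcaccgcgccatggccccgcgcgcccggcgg

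The motifs searched, on both strands, were the estrogen half-site GGTCA (held by 40.5% of 32841 RefSeq windows of the same length), the estrogen response element GGTCANNNTGACC (0.07%), the half-site AGAACA of the progesterone receptor (19%), its full element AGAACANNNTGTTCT (0.00913%) and the TATA box TATAAA (13.6%). The estrogen response element holds the estrogen half-site, and the full progesterone element holds AGAACA. All 7 genes matched a window. Neither full element and no AGAACA was found in any window of the 7 genes. The half-site GGTCA was on the opposite strand (written TGACC in the window) 88 bases upstream of the first Greb1 start, 189 bases upstream of the first Cited1 start and 217 bases upstream of the third start of that gene. It was on the gene's own strand 194 and 85 bases upstream of the second Greb1 start and 16 bases into the first Esr1 transcript. The TATA box letters were on the opposite strand (TTTATA) 32 bases upstream of the Tnfsf11 start and 212 bases upstream of the Pgr start. They were on the gene's own strand 13 bases upstream of the first and 115 bases upstream of the second Cited1 start. The Tnfrsf11a window had none of these motifs, was 76.7% G or C and held 43 CpG dinucleotides, whereas the Pgr window was 43.7% G or C with 6. A match is a description of letters and was not tested as a binding site.

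The deposited values are normalized read counts, which were returned to 9727191 to 17433868 reads per library. Robo1, the targeted gene, was at 37.1% of its Robo1+/+ mean in Robo1-/- LPs, with no overlap between the genotypes. Library gh18 stood apart from the others. Its log2 deviation from the average of the other 5 fell with the GC content of the transcript (Spearman's rho = -0.81 across 12542 genes, which are not independent replicates, against 0.17 to 0.61 in the other 5 libraries), so each fold change is also given after a GC correction and without gh18. Among the 13692 tested genes, limma gave 0 (0%) with an adjusted p under 0.05 and 231 with an unadjusted p under 0.05, and edgeR called 0 at an adjusted p of 0.05. DESeq2, run without the filter on low reads, tested 18531 genes and called 1, which is not among the genes described here.

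Per transcript length, the 7 genes spanned a wide range of expression in LPs. Levels were compared between genes as RPKM, the reads per kilobase of the longest coding transcript per 1000000 reads. Cited1 had the highest mean level over the 6 libraries, 189 RPKM, which was above 98.3% of 16031 genes with a coding transcript. Pgr followed with 84.4 RPKM (above 95.3% of genes) and Esr1 with 23.2 RPKM (79.3%). Tnfsf11 had 13.9 RPKM (68.2%), Msx2 10.03 RPKM (60.5%), Tnfrsf11a 1.57 RPKM (33.3%) and Greb1 0.276 RPKM (21.3%). The transcript of the progesterone receptor was thus present per length at 2.55 to 5.36 times the level of the estrogen receptor in the 6 libraries (exact permutation test of the ratio between genotypes, two-sided, p = 0.3).

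Most of this order held within each library. Pgr was above Esr1, Msx2 above Tnfrsf11a and Tnfrsf11a above Greb1 in 6 of 6 libraries. Cited1 was above Pgr, and Esr1 above Tnfsf11, in 5 of 6. Tnfsf11 was above Msx2 in only 2 of 6 libraries, so these neighbours could not be ranked. Tnfsf11 moved furthest in the order, from above 92.3% of genes in gh03 to above 10.5% in gh12, whereas Pgr stayed above 89.3% to 97.2% of genes.

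The LPs carried markers of both luminal kinds beside these genes. All 12 markers of the list for hormone-sensing luminal cells were tested, among them the prolactin receptor Prlr with 211 RPKM and the growth factor Areg with 809 RPKM. Summed over the list they came to 3764 to 4325 reads per 1000000 (RPM) in Robo1+/+ and 4456 to 5483 in Robo1-/- libraries. Much of each sum came from Prlr (log2 fold change 0.49, SE 0.26, and 0.13 with the GC correction), and 0 of the 12 markers had an unadjusted p under 0.05 or values without overlap between the genotypes. All 13 progenitor markers were tested too, with 91.2 RPKM for the alveolar factor Elf5 and 70.3 RPKM for the receptor Kit, and came to 4935 to 5083 and 4411 to 5455 RPM. Itgb3, which encodes the CD61 of the sort, had 9.42 RPKM. The 10 basal markers summed to 66.4 to 191 RPM in Robo1+/+ and 77.6 to 133 in Robo1-/- libraries. The leukocyte markers, of which 5 of 7 had values, summed to 14.7 to 19.7 RPM in Robo1+/+ and 8.22 to 10.6 RPM in Robo1-/- libraries. The endothelial markers, of which 3 of 4 had values, summed to 2.87 to 5.16 and 1.75 to 6.52 RPM. The defining markers Ptprc (leukocytes) and Cdh5 (endothelium) had at most 1 read in any library, whereas Cd68 had normalized read counts of 65.7 to 134, Cd74 of 23.4 to 133 and Pecam1 of 23.4 to 89.8. Their part in the results was not tested. In sorted bulk RNA, fewer cells of a type and less RNA per cell cannot be told apart, nor can cells with both sets of markers from a mixture of cells.

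**Figure D1:**
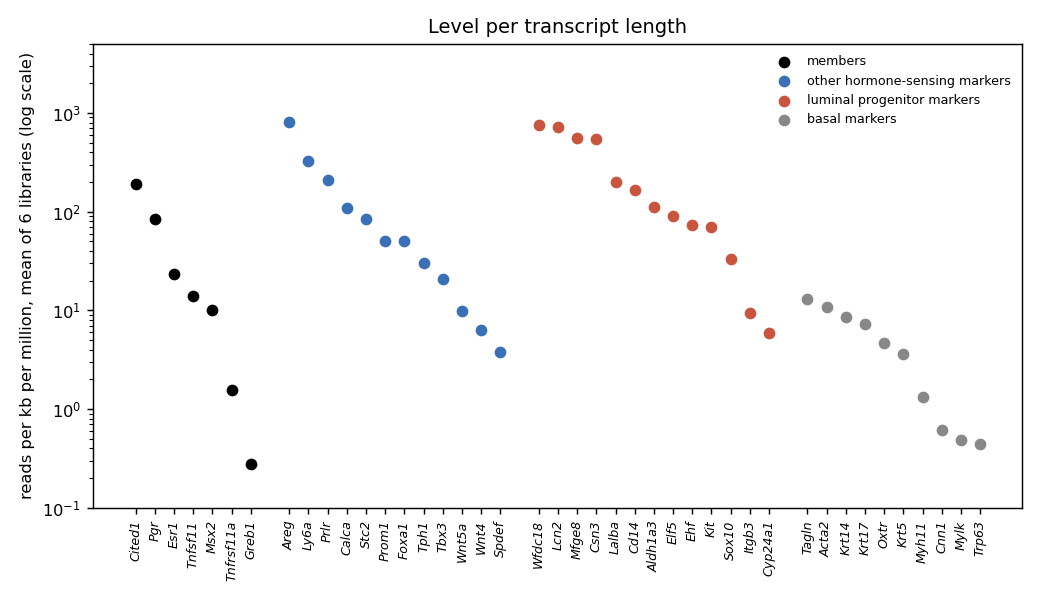
Mean level over 6 libraries in RPKM (log scale) of the 7 genes (black), other hormone-sensing markers (blue), luminal progenitor markers (red) and basal markers (grey). Cited1 (189 RPKM) and Pgr (84.4 RPKM) lay among the abundant luminal markers, Tnfrsf11a (1.57 RPKM) lay among the basal markers, and Greb1 (0.276 RPKM) lay below all of them.

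Between the genotypes, Pgr was the one gene of the 7 whose values did not overlap, and it was higher in Robo1-/- LPs. Pgr (kgCluster25763, chr9:8900419-8965425 on the + strand of NCBI37/mm9) had normalized read counts of 1721 (gh03), 3003 (gh09) and 3394 (gh15) in Robo1+/+ libraries. The Robo1-/- libraries had 5481 (gh06), 4124 (gh12) and 3752 (gh18). The lowest Robo1-/- library was thus above the highest Robo1+/+ library, and the means were 2706 ± 875 (SD, n = 3) and 4452 ± 910 (SD, n = 3), a 1.65-fold difference. The log2 fold change was 0.76 (SE 0.31, 95% interval 0.03 to 1.49), with an unadjusted p = 0.044 and an adjusted p = 0.86 from limma, so the difference did not pass the test across all genes. An exact permutation test, two-sided, gave p = 0.1, the lowest that 3 libraries against 3 allow. Of the 13692 genes, 9.41% did not overlap between the genotypes, 4.83% with higher values in Robo1-/- libraries. An unadjusted p under 0.05 was given to 1.69%, of which the part with higher values was 0.767% of genes and the part with lower values 0.92%. Of the 7 genes, 1 met each of these with higher values.

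The log2 fold change of Pgr was positive under all 16 alternatives, between 0.46 without gh03 and 1.23 with the GC correction. Without gh18 it was 0.87. Without gh03, gh09, gh06 or gh12, its unadjusted p was between 0.061 and 0.13 (adjusted p between 0.55 and 0.99 from limma). The Pgr transcript is 56.1% G or C. Genes within 1 percentage point of that content had a median log2 deviation of -1.35 in gh18, whereas Pgr had 0.18, above 94.98% of those 1316 genes. After the GC correction the log2 values were 10.58, 11.23 and 11.46 in Robo1+/+ libraries against 12.15, 11.85 and 12.97 in Robo1-/- libraries, again without overlap.

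Esr1 (kgCluster1446, chr10:5340927-5734948, -) overlapped between the genotypes. Its normalized read counts were 1346, 2430.4 and 1553 in Robo1+/+ libraries against 2114, 2694 and 2050.1 in Robo1-/- libraries. All 3 Robo1-/- values lay above those of gh03 and gh15, and gh09 lay among them. The log2 fold change was 0.40 (SE 0.28, 95% interval -0.25 to 1.05, adjusted p = 0.86 from limma; exact permutation test, p = 0.3). With the GC correction this became 0.19, and without gh18 it became 0.47.

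**Figure D2:**
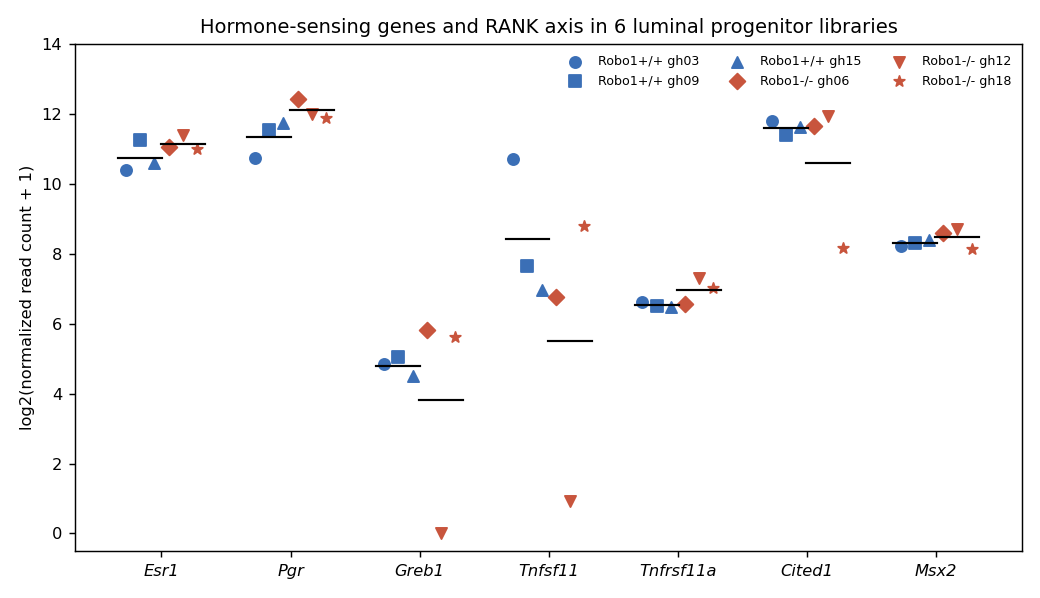
Normalized read counts of the 7 genes on the log2(value + 1) scale, with 1 symbol per library, Robo1+/+ in blue and Robo1-/- in red, and a black line at the mean of each genotype. Pgr separated the genotypes (1721 to 3394 against 3752 to 5481 on the linear scale), whereas the low Robo1-/- means of Greb1 and Cited1 came from gh12 and gh18, and Tnfsf11 had a high value in gh03 and a low one in gh12.

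Of 8 other members of the steroid receptor family, 6 were tested, and 0 had an unadjusted p under 0.05 in either direction. Their median log2 fold change was 0.31, against 0.00 over all tested genes, and 0.10 with the GC correction. The membrane progesterone receptor component Pgrmc1 (log2 fold change 0.33, SE 0.23), the glucocorticoid receptor Nr3c1 (0.38, SE 0.28) and the mineralocorticoid receptor Nr3c2 (0.49, SE 0.37) each had an adjusted p of 0.86 from limma. With the GC correction their log2 fold changes were 0.11, 0.09 and 0.35. Esr2, which encodes estrogen receptor beta, was listed at 0 in 4 libraries and had a normalized read count of 0.92 in gh12 and 4.38 in gh18. Among 18 coregulators and chaperones of steroid receptors, all tested, 0 had an unadjusted p under 0.05 and the median was -0.03. The most abundant, the chaperone Hsp90ab1, had a log2 fold change of -0.14 (SE 0.24).

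Downstream of the estrogen receptor, Greb1 was scarce and was not detected in 1 library. Greb1 (kgCluster4843, chr12:16677421-16807692, -) had normalized read counts of 28.0, 32.1 and 21.6 in Robo1+/+ libraries, from 22, 41 and 23 reads. In Robo1-/- libraries it had 55.2 in gh06, 0 in gh12 and 48.2 in gh18. Replicates gh06 and gh18 were above all 3 Robo1+/+ libraries, and gh12 was below them. The floor of 3 reads in gh12 stands for a value of 2.75, and the value of gh06 was 20.1-fold above that floor. The counting intervals (95%, exact) were 40.7 to 73.2 for gh06 and 0 to 3.38 for gh12. The Robo1+/+ libraries spread by 1.03 times the SD that counting alone would give, and the Robo1-/- libraries by 5.51 times. Floors and intervals here cover only the error of counting, and PCR copies could not be told from separate molecules.

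No direction could be given for Greb1. Its log2 fold change was -0.99 (SE 1.49, adjusted p = 0.87 from limma; exact permutation test, p = 1), but 0.91 (SE 0.44, adjusted p = 0.78 from limma) without gh12 and 0.35 with DESeq2. The log2 fold change of Greb1 was -0.73 with the GC correction and -1.89 without gh18. Of the 5 fibroblast markers, 1, Dcn, was lowest in gh12 too, with a normalized read count of 88.9 there and 389 to 655 in the other 5 libraries. The sum of the list was 50.3 to 60.2 RPM in Robo1+/+ libraries and 70.2, 20.9 and 50.7 RPM in gh06, gh12 and gh18. The other 4 were not lowest in gh12, and Pdgfra had 120.0 there, within its range of 55.4 to 132. The part of such cells in the Greb1 values was not tested.

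Of 20 further estrogen target genes, listed from general knowledge, 17 were tested, 1 had an unadjusted p under 0.05 with higher values (Bcl2) and 0 with lower values, and the median log2 fold change was 0.09. Over all tested genes, 0.767% had such a p with higher values and 0.92% with lower values. Bcl2, an inhibitor of apoptosis, had normalized read counts of 565, 672 and 516 in Robo1+/+ libraries against 829.8, 878 and 1106 in Robo1-/- libraries, with no overlap. Its log2 fold change was 0.68 (SE 0.23, unadjusted p = 0.020, adjusted p = 0.86 from limma), and 0.49 with the GC correction. The groups also did not overlap for Myb, a transcription factor gene (log2 fold change 0.47, SE 0.20), and for Pdzk1, a scaffold protein gene (-0.38, SE 0.32), both named after their values were seen. Of all tested genes, 4.83% did not overlap with higher and 4.58% with lower values in Robo1-/- libraries. After the GC correction the groups overlapped for Myb (log2 fold change 0.31), but not for Bcl2 or Pdzk1. The cell cycle gene Ccnd1, abundant with 96.3 RPKM, had a log2 fold change of -0.24 (SE 0.25, adjusted p = 0.86 from limma).

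On the RANK axis, the ligand gene varied between libraries of the same genotype far more than the receptor gene did. Tnfsf11 (kgCluster7909, chr14:78677252-78707850, -) had normalized read counts of 1660.3 (gh03), 199 (gh09) and 124 (gh15) in Robo1+/+ libraries. The Robo1-/- libraries had 108 (gh06), 0.92 (gh12) and 439 (gh18). Replicate gh03 was above all others, gh12 rested on 1 read, and the remaining 4 libraries of both genotypes overlapped. The ratio of gh03 to gh12 was 1813, with a counting interval (95%, exact) of 325 to 71645.

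Mean Tnfsf11 was 661 ± 866 (SD, n = 3) for Robo1+/+ LPs against 183 ± 228 (SD, n = 3) for Robo1-/- LPs, and each SD exceeded its mean. The log2 fold change was -2.94 (SE 1.99, 95% interval -7.65 to 1.78, adjusted p = 0.86 from limma; exact permutation test, p = 0.4). It was negative under all 15 alternatives that could be run, from -5.57 with voom weights to -0.66 without gh12, and was -3.16 with the GC correction and -4.58 without gh18 (unadjusted p = 0.040, adjusted p = 0.94 from limma). Library gh03, in which Tnfsf11 was highest, also had the highest sum of the 10 basal markers (191 RPM against 66.4 to 133 in the others). It had the highest sum of the adipocyte markers too (27.8 against 4.15 to 15.7). Of these 4 markers 2 had values, Lpl and Fabp4, and only Lpl was tested. Fabp4 had normalized read counts of only 1.46 to 3.92. The part of basal cells or adipocytes in the Tnfsf11 values was not tested.

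Tnfrsf11a (kgCluster724, chr1:107677300-107744558, +) was low and even among Robo1+/+ libraries. Its normalized read counts were 98.0, 89.3 and 87.2 in Robo1+/+ libraries against 93.2, 156 and 128 in Robo1-/- libraries. Replicates gh12 and gh18 were above all Robo1+/+ values and gh06 was among them. The means were 91.5 ± 5.68 (SD, n = 3), a spread of 0.60 times the SD of counting alone, and 126 ± 31.3 (SD, n = 3). It had a log2 fold change of 0.43 (SE 0.31, 95% interval -0.31 to 1.16, adjusted p = 0.86 from limma). An exact permutation test gave p = 0.2. The log2 fold change was 0.30 after the GC correction and 0.40 without gh18.

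Per transcript length, the ligand transcript exceeded the receptor transcript in 5 of 6 libraries. The ratio of Tnfsf11 to Tnfrsf11a was 38.1 (gh03), 5.004 (gh09) and 3.19 (gh15) in Robo1+/+ libraries, against 2.61 (gh06), 0.0132 (gh12) and 7.68 (gh18) in Robo1-/- libraries. Replicate gh12 therefore combined the lowest ligand with the highest receptor value. These ratios overlapped (exact permutation test, two-sided, p = 0.4). Against Tnfrsf11b, the gene of the soluble decoy receptor osteoprotegerin, the ratio of Tnfsf11 ran from 0.105 in gh12 to 47.0 in gh03. Tnfrsf11b itself had normalized read counts of 44.5, 7.05 and 44.1 in Robo1+/+ libraries against 8.06, 10.99 and 107 in Robo1-/- libraries, a log2 fold change of -0.17 (SE 1.11). That fold change was -0.44 with the GC correction and -1.29 without gh18.

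**Figure D3:**
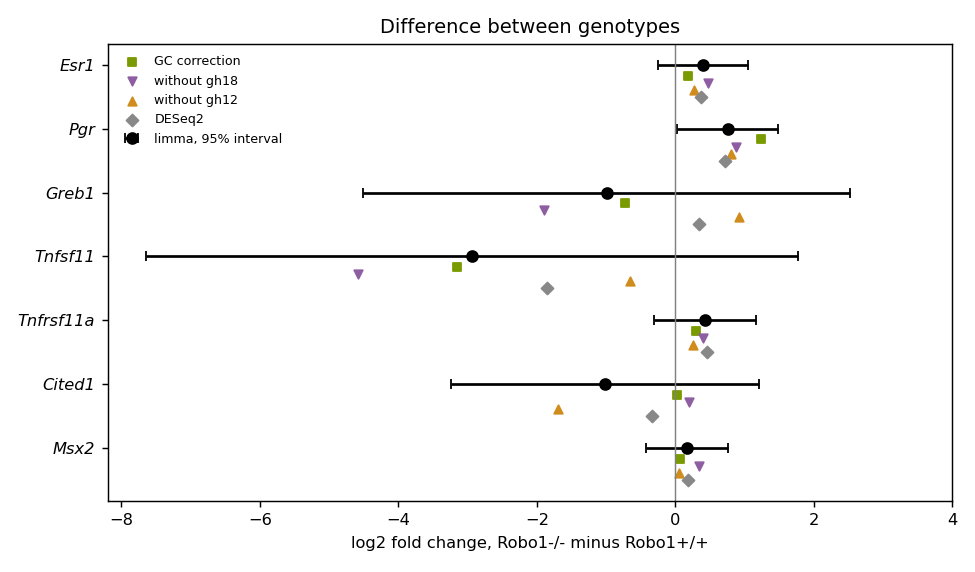
Log2 fold change (Robo1-/- minus Robo1+/+) of the 7 genes from limma with its 95% interval (black), and under 4 other settings (coloured symbols). The interval of Pgr (0.03 to 1.49) lay above 0, those of the other 6 genes crossed it, and the symbols of Greb1 and Cited1 fell on both sides of 0.

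Some further progesterone targets had the library profile of Tnfsf11 and others did not. Of 15 genes on the list, 12 were tested, 0 had an unadjusted p under 0.05 in either direction, and the median log2 fold change was -0.47 (-0.18 with the GC correction). Calca, the calcitonin gene, had normalized read counts of 5518, 578 and 1477 in Robo1+/+ libraries against 125, 3.66 and 943 in Robo1-/- libraries. Like Tnfsf11, it was highest in gh03 and lowest in gh12, where it rested on 4 reads, a 1508-fold range. Its log2 fold change was -4.35 (SE 1.84, unadjusted p = 0.050, adjusted p = 0.86 from limma), -4.43 with the GC correction and -6.11 without gh18. Rspo1, the gene of a Wnt-enhancing secreted factor, had 1316, 154 and 528 in Robo1+/+ libraries against 200.3, 4.58 and 582 in Robo1-/- libraries, a 287-fold range. The log2 fold change of Rspo1 was -2.45 (SE 1.69), -1.64 with the GC correction and -3.83 without gh18.

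The order with gh03 highest and gh12 lowest was held by 5 of the 12 tested progesterone targets (41.7%), namely Calca, Rspo1, Fkbp5, Zbtb16 and Id4, and by 411 of all 13692 tested genes (3.00%). This order was looked for after the values of Tnfsf11 had been seen, and the last 4 genes were named for it. Fkbp5, a receptor cochaperone gene, had 2589, 833 and 569 in Robo1+/+ libraries against 526, 325 and 571 in Robo1-/- libraries, a 7.96-fold range. Id4 varied only between 6.41 and 12.7 and rested on 7 reads in gh12. Its values in gh03 (12.72) and gh06 (12.66) were almost equal, so its place in this order is uncertain. The same holds for Zbtb16, whose values in gh12 (146.57, from 160 reads) and gh15 (148.22) were almost equal. Wnt4, another paracrine factor of hormone-sensing cells, was lowest in gh18 in place of gh12. It had 602, 546 and 360.2 in Robo1+/+ libraries against 460.4, 213 and 4.38 in Robo1-/- libraries (log2 fold change -2.60, SE 1.53, and -0.65 without gh18). Areg, the amphiregulin gene, varied little, from 11195 to 15050.3 (log2 fold change 0.22, SE 0.19). Neither receptor gene had the order of Tnfsf11, since gh03 held the lowest values of both Esr1 and Pgr.

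**Figure D4:**
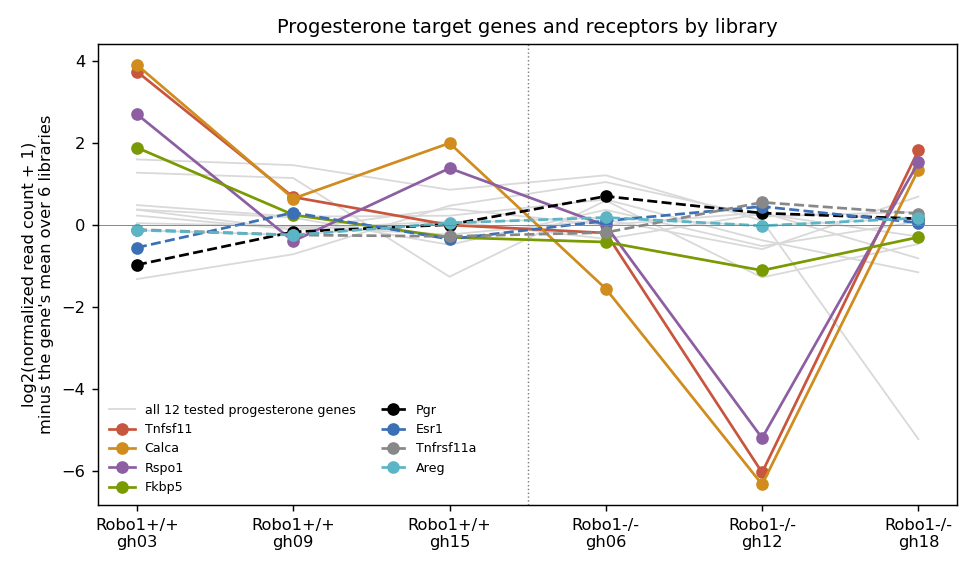
Log2(normalized read count + 1) minus each gene's mean over the 6 libraries, with Robo1+/+ libraries left and Robo1-/- libraries right of the dotted line; lines join the values of a gene, not an order of libraries, and grey lines are the 12 tested progesterone targets. Tnfsf11, Calca and Rspo1 were highest in gh03 and lowest in gh12, while Pgr, Esr1, Tnfrsf11a and Areg stayed near their means.

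Of 22 genes listed for RANK signaling, among them adaptors, NF-kB genes, the decoy receptor gene Tnfrsf11b and the RANKL receptor gene Lgr4, all tested, 0 had an unadjusted p under 0.05 with higher values in Robo1-/- LPs and 1 with lower values (Nfkb2). Over all tested genes, 0.767% had such a p with higher values and 0.92% with lower values. The median log2 fold change of the 22 was -0.24, or -0.12 with the GC correction. The groups did not overlap for 4 genes with lower values in Robo1-/- libraries (Nfkb2, Relb, Traf3 and Ikbkb), against 4.58% of all tested genes. They also did not overlap for 1 with higher values (Ikbkg), against 4.83% of all tested genes. Relb, Traf3, Ikbkb and Ikbkg were named after their values were seen. After the GC correction the groups overlapped for Nfkb2, Traf3, Ikbkb and Ikbkg, but not for Relb. Nfkb2, which encodes the p100 precursor of the noncanonical NF-kB pathway, had normalized read counts of 3123, 3358 and 4079.7 in Robo1+/+ libraries against 2682, 1714 and 823 in Robo1-/- libraries. The fold change on the log2 scale was -1.17 (SE 0.42, unadjusted p = 0.028, adjusted p = 0.86 from limma), -0.38 with the GC correction and -0.71 without gh18. Its partner Relb had a log2 fold change of -0.93 (SE 0.40), -0.48 with the GC correction. Traf6, the main adaptor of RANK, had 0.06 (SE 0.27). In Nfkb2 and Relb, which are 59.3% and 56.0% G or C, gh18 held the lowest value of the 6 libraries.

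Per length, Cited1 was the most abundant gene of the 7 in 5 libraries, but not in gh18. Cited1 (kgCluster28149, chrX:99442720-99447520, -) had normalized read counts of 3557, 2702 and 3150.1 in Robo1+/+ libraries against 3239.8, 3954 and 286 in Robo1-/- libraries. Replicates gh06 and gh12 were in and above the Robo1+/+ range, and gh18 was far below it. The log2 fold change of -1.01 (SE 0.94, adjusted p = 0.86 from limma; exact permutation test, p = 0.9) turned to 0.20 without gh18 and 0.03 with the GC correction. The Cited1 transcript is 62.4% G or C, above 98.7% of the tested genes. Its log2 deviation in gh18 was -3.52, within the range (5% to 95%) of -4.75 to -0.44 of the 192 genes within 1 percentage point of that content. Over the other 5 libraries Cited1 had an SD within genotype of 0.20 on the log2 scale.

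Msx2 (kgCluster6289, chr13:53562250-53568443, -) varied little between libraries. Its normalized read counts were 300.3, 316 and 336 in Robo1+/+ libraries against 387, 414 and 282 in Robo1-/- libraries, of which gh06 and gh12 were above and gh18 below all Robo1+/+ values. The Robo1+/+ libraries spread by 1.01 times the SD of counting alone. Its log2 fold change was 0.17 (SE 0.25, 95% interval -0.42 to 0.76, adjusted p = 0.87 from limma; exact permutation test, p = 0.4), 0.07 with the GC correction and 0.34 without gh18.

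Among relatives of Cited1 and Msx2 and their bone morphogenetic protein partners, 12 of 15 genes were tested. An unadjusted p under 0.05 was found for 1 with higher values (Cited2) and for 0 with lower values, against 0.767% and 0.92% of all tested genes. The median log2 fold change was -0.01. Cited2, which encodes a related coactivator, had 262, 165 and 264 in Robo1+/+ libraries against 358, 383 and 479 in Robo1-/- libraries, with no overlap. Its log2 fold change was 0.84 (SE 0.29, unadjusted p = 0.023, adjusted p = 0.86 from limma), 0.87 with the GC correction and 0.71 without gh18. Per length, the ratio of Cited1 to Cited2 was 24.5, 29.5 and 21.6 in Robo1+/+ libraries against 16.3, 18.6 and 1.08 in Robo1-/- libraries, lower in each of the latter (exact permutation test, two-sided, p = 0.1, the lowest possible). Cited2 alone already did not overlap, so the ratio is not a separate result. It was taken without the GC correction, and the transcripts of Cited1 and Cited2 are 62.4% and 50.9% G or C. The third family member, Cited4, had a log2 fold change of -1.28 (SE 0.96), 0.06 with the GC correction. The bone morphogenetic protein receptor gene Bmpr1b was highest in gh03 (369) and lowest in gh12 (9.16), as Tnfsf11 was, with a log2 fold change of -1.39 (SE 1.19).

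The 7 genes differed widely in their spread between libraries of a genotype. The SD of log2(value + 1) within genotype was 3.20 for Tnfsf11, and 3 of the 13692 tested genes had a larger one. It was 2.34 for Greb1 (45 genes larger) and 1.496 for Cited1 (472 larger). Pgr with 0.42, Esr1 with 0.35, Tnfrsf11a with 0.27 and Msx2 with 0.22 lay at or below the median of all tested genes, 0.43. The SD of Greb1 rested on gh12, without which it was 0.24, and that of Cited1 on gh18, without which it was 0.20. That of Tnfsf11 stayed between 1.82 (without gh12, above 98.3% of genes) and 3.66 (without gh09) with each library left out in turn. After the GC correction, where the median of 12542 genes was 0.32, the SD was 3.10 for Tnfsf11 and 2.49 for Greb1. Cited1 with 0.52, Pgr with 0.52 and Esr1 with 0.45 then lay above that median, and Msx2 with 0.30 and Tnfrsf11a with 0.25 below it.

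**Figure D5:**
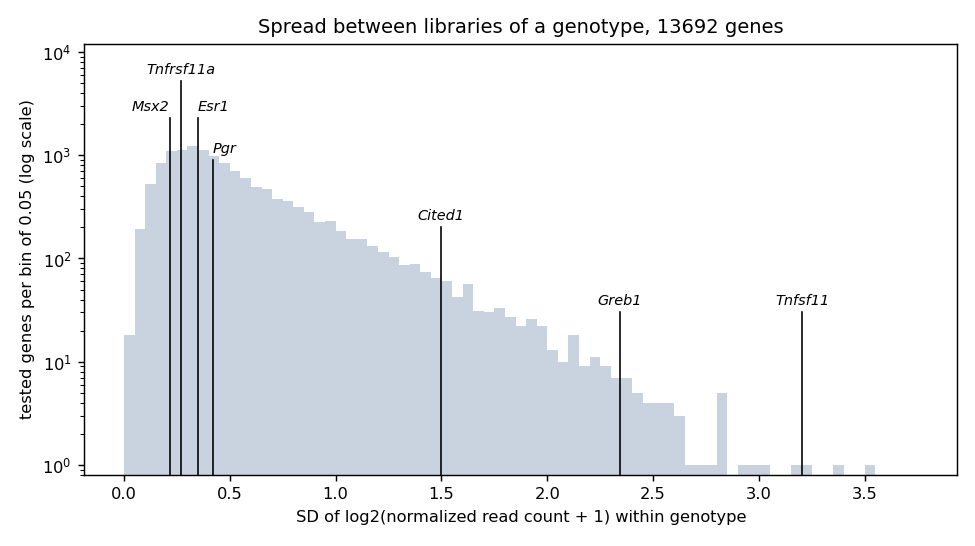
Histogram of the SD of log2(normalized read count + 1) within genotype for the 13692 tested genes, in bins of 0.05 with a log count axis; black lines mark the 7 genes. Tnfsf11 (3.20), Greb1 (2.34) and Cited1 (1.496) stood in the upper tail, and Msx2, Tnfrsf11a, Esr1 and Pgr (0.22 to 0.42) in the bulk.

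The genes most like each of the 7 over the 6 libraries were listed as a description, by Pearson's r of log2(value + 1) among 12762 genes with a mean normalized read count of at least 20. All points of such a correlation share the 6 libraries, with their depth and GC trends. For Tnfsf11 the closest gene was C3, the complement component (r = 0.998), with 15513, 7409 and 5568 in Robo1+/+ libraries against 6240.2, 1422 and 10055 in Robo1-/- libraries, followed by Tgfbrap1 (r = 0.984). For Pgr they were Lifr, the receptor of leukemia inhibitory factor (r = 0.988), and Ktn1 (r = 0.985), and for Esr1 they were Zswim7 (r = 0.994) and Gla (r = 0.993). Greb1 was closest to 2610524H06Rik (r = 0.997) and to Dcn (r = 0.974), Tnfrsf11a to Impa1 (r = 0.996) and Scd2 (r = 0.991), and Msx2 to Slc25a20 (r = 0.987) and BC068281 (r = 0.970). Cited1 had 1421 genes with r above 0.95, led by Ttll12 and Stoml1 (each r = 0.998), both of which were lowest in gh18, whereas the other 6 genes had 7 to 43.

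Among the 7 genes themselves, over the 6 libraries, r was 0.65 between Esr1 and Pgr (0.02 after the GC correction), -0.58 between Pgr and Tnfsf11 (-0.29) and -0.61 between Tnfsf11 and Tnfrsf11a (-0.79). The highest positive r was that of Greb1 with Tnfsf11 (r = 0.86, Spearman's rho = 0.26), and both genes had their lowest value in gh12. The most negative was that of Tnfsf11 with Msx2 (r = -0.84, Spearman's rho = -0.94, r = -0.61 after the GC correction). After that correction the most negative was Greb1 with Cited1 (r = -0.91, against -0.38 before it), followed by Greb1 with Tnfrsf11a (r = -0.84, against -0.71).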

How the data were processed

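By the study's methods, reads of 75 bases that bowtie2 placed on repeats were discarded, TopHat placed the others on NCBI37/mm9, and DESeq2 gave the normalized counts. The sample records name DESeq for this last step. The deposited values are a normalized signal per known-gene cluster, that is, read counts divided by a size factor per library. The counting tool and its use of strand are not given in the sources used here. Whole reads were recovered from the value of 1 read in each library, and 100% of values were whole (tolerance 0.005). Replicate names do not pair libraries across genotypes. Nothing says more than that 2 animals went into each library, so p-values measure the spread between these libraries.

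Values were tested as log2(value + 1) with limma (version 3.58.1, R 4.3.3), with eBayes trend moderation and Benjamini-Hochberg adjusted p over the 13692 genes kept by filterByExpr of edgeR (version 4.0.16). Since the values are normalized, edgeR and DESeq2 (version 1.42.0) on recovered reads served as alternatives and called 0 and 1 genes. The other alternatives were TMM scaling, voom with quality weights, other filters and pseudocounts, a GC correction (a lowess curve of log2 deviation on transcript GC content, span 0.3) and each library left out. Transcript lengths, positions and GC content came from GENCODE release M1 on NCBI37, in which 16031 clusters matched a coding transcript by symbol. Scripts were tested on simulated data.

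The genes and lists were chosen with earlier results of these data known. Named from each list were genes with an unadjusted p under 0.05, up to 3 of the highest mean value and 2 of the largest fold change. Others named for their role or values were added to these.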

Additional observations from a re-analysis of the deposited data

How the results depend on the processing

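No adjusted p of the 7 genes passed 0.05 under any alternative. The log2 fold changes of Esr1, Pgr, Tnfsf11, Tnfrsf11a and Msx2 kept their sign under every alternative that could be run. Greb1 and Tnfsf11 have no value with at least 10 reads in every library. That of Greb1 (-0.99) was 0.35 with DESeq2 and 0.31 with edgeR, and ran from -1.99 to 0.91 with 1 library left out, where only leaving out gh12, its library with 0 reads, turned it. That of Cited1 (-1.01) was 0.21 with voom weights, 0.027 with the GC correction and 0.35 with that correction and without gh18. It ran from -1.69 to 0.20 with 1 library left out, positive only without gh18.

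Of the 7 genes, 1 had an unadjusted p under 0.05 from limma, against 0 with edgeR, 5 with voom weights and 2 with the GC correction and without gh18, and 0 to 2 with 1 library left out. Without gh03, gh09, gh06 or gh12 it was 0, and without gh18 it was 2 (Pgr and Tnfsf11). Over all tested genes that count was 231, against 1641 with voom weights, 415 with all genes that had a read and 566 with the GC correction and without gh18. With 1 library left out it ran from 117 without gh15 to 903 without gh06, with 133 without gh03 or gh12 and 588 without gh18. The cause was not tested. DESeq2 called 1 gene at an adjusted p of 0.05. These counts of members and of unadjusted p-values were added after seeing the data. No paired analysis was possible because the labels give the genotypes no shared replicate numbers. Values of Greb1 and Tnfsf11 in gh12 rest on 0 and 1 reads, in a library of 15185303 reads.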

Other observations

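Of the luminal marker lists, 3 genes had an unadjusted p under 0.05, each with higher values in Robo1-/- LPs. Of all tested genes, 1.69% had such a p, 0.767% with higher values. Csn3, the kappa-casein gene, had normalized read counts of 7755, 8119 and 9771 in Robo1+/+ libraries against 11376, 19143 and 16670 in Robo1-/- libraries, and Lalba, the alpha-lactalbumin gene, had 1323, 1748 and 1367 against 2568, 3119 and 2044. Neither overlapped between the genotypes, as was so for 9.41% of all tested genes. After the GC correction Csn3 overlapped and Lalba did not. Their log2 fold changes were 0.85 (SE 0.25) and 0.79 (SE 0.24), each with an unadjusted p = 0.012 and an adjusted p = 0.86 from limma, and were 0.46 and 0.82 with the GC correction. They were the 2 of 13 tested progenitor markers with an unadjusted p under 0.05. The median of that list was -0.00, with log2 fold changes of -0.57 for Cd14, -0.74 for Mfge8 and -0.13 for Kit. With the GC correction these were -0.37 for Cd14, -0.11 for Mfge8 and -0.23 for Kit. Without gh18 they were -0.18, 0.04 and -0.16. Of 8 pan-luminal markers 1, Cd24a, which encodes an antigen of the sort, did so too, with a 1.58-fold higher mean in Robo1-/- libraries (log2 fold change 0.67, SE 0.21, adjusted p = 0.86 from limma). With the GC correction the log2 fold change of Cd24a was 0.40, and its values overlapped between the genotypes.

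Leukocyte markers were scarce, and 3 of 7 were tested. An unadjusted p under 0.05 was found for 1 of them, Cd74, with lower values, against 0.92% of all tested genes. Cd74 had 91.6, 47.8 and 133 in Robo1+/+ libraries against 27.6, 26.6 and 23.4 in Robo1-/- libraries, with no overlap, as was so with lower values for 4.58% of all tested genes. Its log2 fold change was -1.66 (SE 0.44, unadjusted p = 0.0073, adjusted p = 0.86 from limma) and -1.59 without gh18. With the GC correction it was -1.14, and the values of Cd74 overlapped between the genotypes. Of 10 basal markers, all tested, 0 had an unadjusted p under 0.05, and the same held for 1 endothelial, 4 fibroblast and 1 adipocyte marker that were tested.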
